A study of Sus scrofa with 24 samples.

Results

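Acid secretion by the parietal cell was followed through 6 genes: ATP4A and ATP4B, KCNE2, KCNJ15, KCNJ13 and AQP4. They were picked for their role, by gene symbol, from the 10882 genes measured on an Affymetrix Porcine Gene array, and each had exactly 1 transcript cluster (a set of probes for 1 transcript region). The arrays were hybridized with RNA of the oxyntic mucosa, the acid-producing lining of the stomach, of 24 piglets of the (Great York x Pietrain) x 'Dalland' cross, 1 array per piglet, at 3 weeks of age. All were born by caesarean section, raised artificially and given pasteurized sow colostrum at birth and 2 mL of a starter microbiota of 3 kinds of bacteria on days 1 to 3. On days 3 to 4 the complex association (CA) received diluted faeces of an adult sow and the simple association (SA) a placebo. Each association was divided over 2 diets, the control (CON) and one rich in medium chain triglycerides (MCT) because coconut oil replaced most of its soy and palm oil. Of the 4 groups of 6 piglets, CA CON held pigs 1 to 6, CA MCT held 7 to 12, SA CON held 13 to 18 and SA MCT held 19 to 24. Per the labels the associations lived in different rooms, in which case association and room cannot be told apart, whereas the methods of the study place piglets of each group in every pen or room and balance the litters over the groups. Litter, pen and array strip were not labelled per piglet, and a p-value here measures the spread between piglets that may share them.

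The parietal cell moves hydrogen ions into the gland lumen with the gastric proton pump, which takes up potassium in exchange. The pump therefore works only as long as potassium channels return potassium to the lumen and chloride leaves with the acid, while bicarbonate is exported and water crosses on the opposite side of the cell. Histamine, gastrin and acetylcholine start secretion, and the resting cell keeps its pumps in internal vesicles. A change in acid output can thus take place with no change in mRNA, and the values below are levels of mRNA alone.

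Markers of the gastric mucosa were measured on every array, with intensities of 1846 to 2712 for PGC, the progastricsin of chief cells, and of 2403 to 3250 for GKN1, a secreted protein of surface mucous cells. Of 7 markers of the antrum and intestine, the transcription factors CDX1, CDX2 and PDX1 were at 5.97 to 9.76, 5.74 to 11.4 and 8.55 to 13.7, FABP2, a fatty acid binding protein, at 5.06 to 12.7, and SI, the sucrase of the gut, at 3.34 to 6.78. GAST, the gastrin gene, was at 31.9 to 48.6 and VIL1, the villin of brush borders, at 125 to 276. KRT5, a keratin of the squamous stomach, was at 7.64 to 16.2. Intensities of different probes cannot be set against each other, so these values describe the samples and give no share of any cell type. The median intensity of an array was 23.1 to 26.4. The arrays of pig 4 (CA CON), pig 10 (CA MCT) and pig 22 (SA MCT) stood apart, with a median correlation with the other arrays of 0.946, 0.975 and 0.981 against 0.987 to 0.992 for the rest. In whole mucosa, fewer parietal cells and less mRNA per cell cannot be told apart.

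ATP4A encodes the catalytic alpha subunit of the proton pump. Its intensity had a lowest, median and highest value of 3245, 3554 and 3769 in CA CON, of 3389, 3601 and 3703 in CA MCT, of 3029, 3650 and 3751 in SA CON, and of 3507, 3575 and 3881 in SA MCT. All 4 ranges overlapped, and the highest of the 24 piglets was only 1.28 times the lowest. ATP4B encodes the beta subunit, which carries the pump to the apical membrane. Its intensity was 2548, 2681 and 2936 in CA CON, 2329, 2724 and 2869 in CA MCT, 2334, 2710 and 2807 in SA CON, and 2384, 2676 and 2915 in SA MCT, again in the order lowest, median, highest. The medians of the groups lay close together, and the whole range was 1.26-fold.

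Among the potassium channel genes, KCNE2 encodes the small subunit that keeps the luminal KCNQ1 channel of the parietal cell open in acid. Its lowest, median and highest intensity was 441, 573 and 696 in CA CON, 287, 475 and 621 in CA MCT, 284, 533 and 635 in SA CON, and 507, 536 and 636 in SA MCT. Pig 9 of CA MCT and pig 18 of SA CON were far below all other piglets, whereas the SA MCT piglets lay close together. KCNJ15 encodes an inward rectifier channel found in parietal cells in other mammals. It measured 640, 724 and 855 in CA CON, 599, 720 and 761 in CA MCT, 378, 663 and 708 in SA CON, and 609, 681 and 749 in SA MCT. Without pig 18 no piglet was below 583.

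KCNJ13 encodes another inward rectifier of epithelia, often found beside the sodium pump. Its intensity was 127, 199 and 275 in CA CON, 173, 198 and 258 in CA MCT, 89.5, 193 and 246 in SA CON, and 70.1, 197 and 262 in SA MCT. The 4 medians were nearly the same while single piglets differed widely. AQP4 encodes the water channel of the basolateral membrane, known from the parietal cells of rodents. It measured 332, 485 and 577 in CA CON, 201, 368 and 504 in CA MCT, 246, 482 and 737 in SA CON, and 257, 461 and 873 in SA MCT. Pig 10 of CA MCT was the lowest and pig 21 of SA MCT the highest, 4.34 times as high. For every gene the gap between the mean log2 values of neighbouring groups was smaller than the larger SD of the pair. This sets neighbouring groups beside the spread of single piglets and is not a test of the group means, which are compared below.

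**Figure D1:**
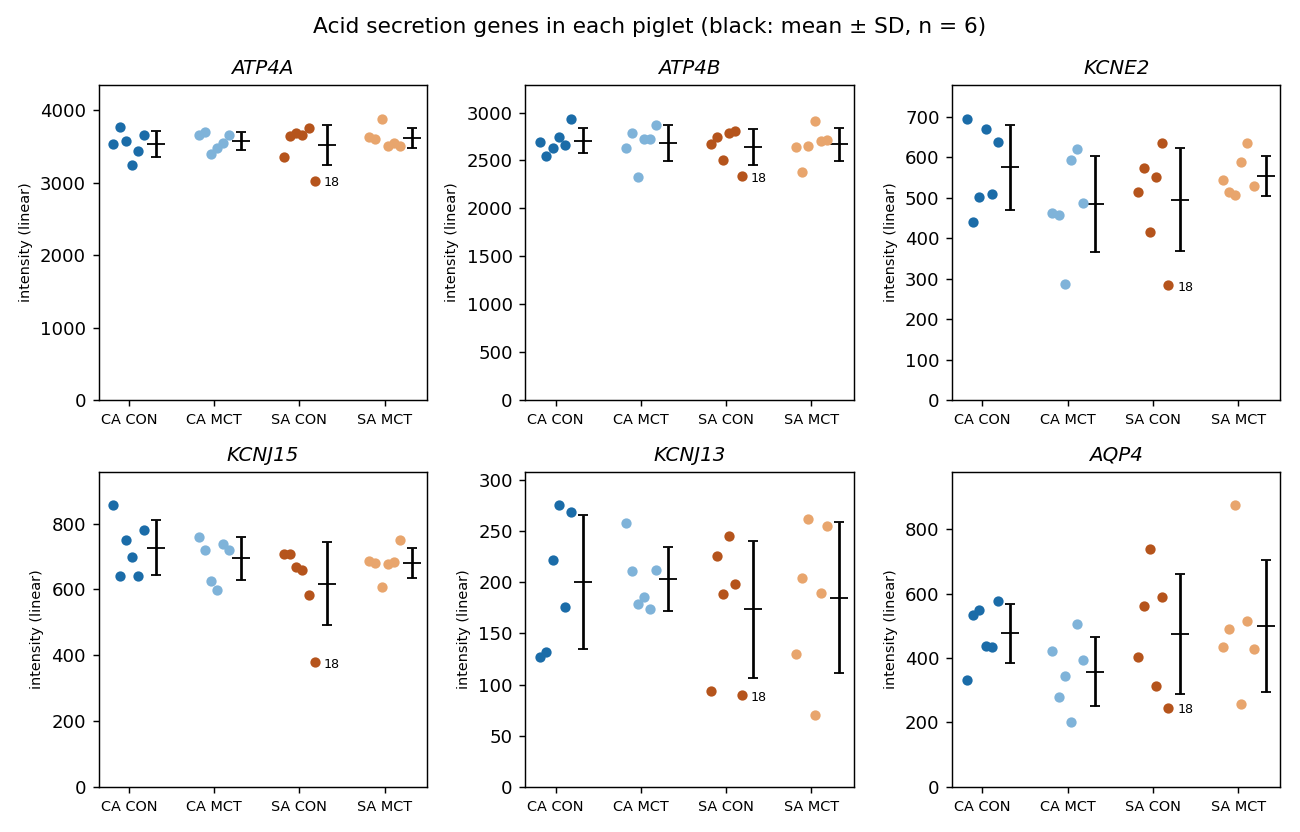
Intensity (linear scale, from 0) of the 6 acid secretion genes in each piglet, by group, 1 point per piglet, with the group mean and SD in black (n = 6). ATP4A and ATP4B varied by 1.28-fold and 1.26-fold over all 24 piglets, KCNJ13 by 3.92-fold and AQP4 by 4.34-fold, and pig 18 (numbered) was low in every panel.

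The spread between piglets was smallest for the pump genes. The SD within groups on the log2 scale was 0.08 for ATP4A and 0.09 for ATP4B, and 0.974% and 2.69% of all genes had a smaller one. It was 0.21 for KCNJ15, near the median of all genes of 0.20, and 0.33 for KCNE2, above that of 89.3% of the genes. KCNJ13 and AQP4 varied most, with SD of 0.55 and 0.50, above those of 99.1% and 98.5% of all genes. Differences between the 4 groups accounted for 4.40% of the variation of ATP4A, 2.07% for ATP4B, 13.7% for KCNE2, 20.0% for KCNJ15, 6.21% for KCNJ13 and 14.4% for AQP4, beside a median of 9.44% over all genes. ATP4A and ATP4B were bright, with intensities up to 3881 and 2936, where the highest of any cluster on any array was 5869. Their SD was not set against that of genes of like intensity. Whether bright signals vary less on these arrays was not tested.

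Whether the association changed these genes was asked first over both diets, with limma on log2 intensity and adjustment over all genes. None of the 6 genes passed an adjusted p under 0.05 in this or any of the other 6 comparisons, and 0% of all genes did. ATP4A differed by -0.25% between CA and SA, with a 95% interval of -6.29% to 6.19%, and ATP4B by 1.37%, with an interval of -5.31% to 8.51%. KCNE2 differed by 0.523% (interval -15.8% to 20.0%). The difference was 10.4% for KCNJ15 (-2.08% to 24.4%), 18.8% for KCNJ13 (-11.5% to 59.5%) and -12.0% for AQP4 (-32.6% to 14.9%). The intervals of these genes and of KCNE2 were wider than those of ATP4A and ATP4B. None of the 6 had an unadjusted p under 0.05, against 4.14% of all genes. On the log2 scale KCNJ15 was at 0.14, and at 0.07 without pig 18 and 0.17 without pig 14. KCNJ13 was at 0.25, and at 0.16 without pig 18, 0.12 without pig 22 and 0.31 without pig 21. AQP4 was at -0.18, and at -0.11 without pig 10, -0.11 without pig 15, -0.09 without pig 21 and -0.27 without pig 22.

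On CON, CA minus SA was 0.26 ± 0.12 for KCNJ15 on the log2 scale (SE), or 19.7%, with an unadjusted p of 0.0382 and an adjusted p of 0.943 in limma. With all piglets kept and weighted alike, it was the only one of the 6 genes with an unadjusted p under 0.05 in any comparison. On CON 4.25% of all genes had one. An exact two-sided permutation test over the piglets gave p = 0.0974, with 0.00216 as the smallest p that 6 against 6 piglets allow. Pig 18 of SA CON held 62.7% of the sum of squares of KCNJ15 over the 24 piglets, and without it the difference was 0.12 with an unadjusted p of 0.165. On the same diet it was 0.24 ± 0.18 for KCNE2, 0.25 ± 0.29 for KCNJ13 and 0.08 ± 0.26 for AQP4, and without pig 18 these values were 0.09, 0.08 and -0.09. Other omissions raised them, to 0.32 for KCNE2 (without pig 17), 0.37 for KCNJ13 (pig 16) and 0.23 for AQP4 (pig 15). KCNJ15 was at 0.31 without pig 14. KCNJ13 was also at 0.14, 0.15 and 0.09 without pigs 4, 6 and 13 in turn. ATP4A and ATP4B differed by 0.01 ± 0.06 and 0.04 ± 0.07, and without pig 18 by -0.03 and 0.00016. No gene of the 6 had CA CON and SA CON piglets that did not overlap, which held for 0.147% of all genes.

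On MCT, CA minus SA was -0.45 ± 0.26 for AQP4 on the log2 scale, with an interval of -0.99 to 0.09 and an unadjusted p of 0.101 in limma. This value was -0.30 without pig 10, -0.27 without pig 21 and -0.62 without pig 22, in which case its unadjusted p was 0.0238 and its adjusted p above 0.999. With the arrays weighted it was -0.49, with an unadjusted p of 0.0409 and an adjusted p of 0.851 in limma. KCNE2 had a difference of -0.23 ± 0.18, which was -0.08 without pig 9 and -0.31 without pig 11. KCNJ13 was at 0.25 ± 0.29 (-0.0035 without pig 22 and 0.38 without pig 21), KCNJ15 at 0.03 ± 0.12, ATP4B at 0.0039 ± 0.07 and ATP4A at -0.02 ± 0.06. On this diet 2.66% of all genes had an unadjusted p under 0.05, and 0.193% had groups that did not overlap. With all piglets kept and weighted alike, 0 of the 6 genes had either.

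The diet was compared in the same way. Over both associations the 6 genes differed between MCT and CON by -0.19 ± 0.19 (AQP4) to 0.07 ± 0.21 (KCNJ13) on the log2 scale, and none had an unadjusted p under 0.05, against 2.34% of all genes. AQP4 was at -0.11 without pig 10, -0.11 without pig 15, -0.10 without pig 22 and -0.28 without pig 21. KCNJ13 ranged from -0.010 (without pig 18) to 0.20 (without pig 22) as each piglet was left out. ATP4A was at 0.03 ± 0.04 and ATP4B at -0.00042 ± 0.05. In CA piglets AQP4 had a log2 difference of -0.45 ± 0.26, with an unadjusted p of 0.0987 in limma and p = 0.0714 in the exact permutation test. Without pig 10, whose array stood apart and whose AQP4 was the lowest of all, it was -0.30, and without pig 11 it was -0.56. KCNE2 differed by -0.27 ± 0.18 in CA piglets, by -0.13 without pig 9 and by -0.35 without pig 11. With the arrays weighted it differed by -0.34, with an unadjusted p of 0.0316 and an adjusted p above 0.999 in limma. The other 4 genes were within -0.07 and 0.08. In CA piglets 3% of all genes had an unadjusted p under 0.05 and 0.0735% did not overlap between the diets. In SA piglets KCNE2 differed by 0.20 ± 0.18 and KCNJ15 by 0.17 ± 0.12, and these were 0.05 and 0.03 without pig 18. KCNE2 was at 0.28 without pig 17, and KCNJ15 at 0.22 without pig 14. The other 4 genes were within 0.02 and 0.08 in SA piglets, where 2.04% of all genes had an unadjusted p under 0.05 and 0.119% did not overlap. With all piglets kept and weighted alike, none of the 6 genes did either of these in the CA or the SA piglets.

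The interaction asks whether the effect of the association depended on the diet, and was taken as CA minus SA on MCT less the same on CON. KCNE2 had an interaction of -0.47 ± 0.25 on the log2 scale, with an interval of -0.98 to 0.04, an unadjusted p of 0.0704 in limma and an adjusted p above 0.999. Its group means were 9.15 in CA CON and 9.11 in SA MCT, and 8.91 in SA CON and 8.88 in CA MCT, and the latter groups held pigs 18 and 9. The interaction was -0.32 without pig 18, -0.18 without both pigs and -0.55 without pig 17. With the arrays weighted it was -0.50, with an unadjusted p of 0.0283 and an adjusted p of 0.998 in limma. AQP4 had an interaction of -0.53 ± 0.37, which was -0.35 without pig 21 and -0.70 without pig 22. That of KCNJ15 was -0.23 ± 0.17, and it was -0.10 without pig 18 and -0.28 without pig 14. ATP4A, ATP4B and KCNJ13 were at -0.03 ± 0.09, -0.03 ± 0.10 and 0.0029 ± 0.41. With all piglets kept and weighted alike, none of the 6 had an unadjusted p under 0.05, where 2.53% of all genes did.

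**Figure D2:**
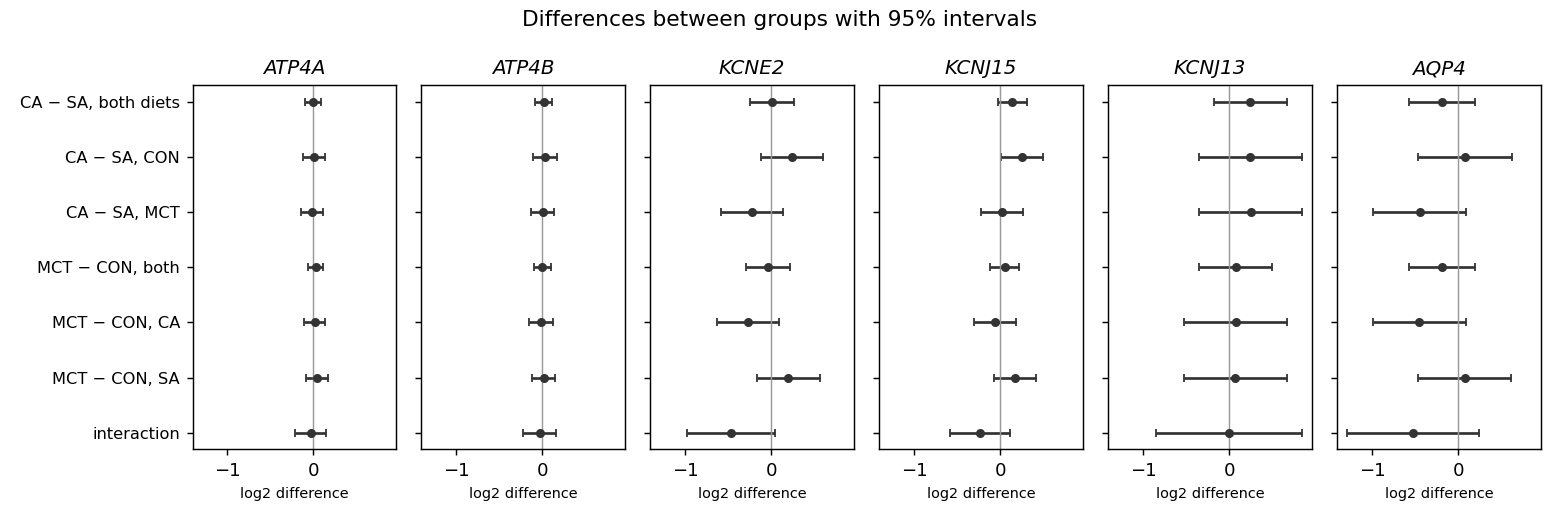
Log2 difference (point) and 95% interval from limma (bar) for the 6 genes in the 7 comparisons, on 1 shared axis. The intervals of ATP4A and ATP4B were narrow around 0, the interval of KCNJ15 for CA minus SA on CON was the only one that left out 0 before adjustment, and those of KCNJ13 and AQP4 were the widest.

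Some piglets stood apart in several of the genes at once. Pig 18 (SA CON) was among the lowest 3 of 24 for all 6 genes, while 18.2% of all genes put it there. It was the lowest of all piglets for ATP4A, KCNE2 and KCNJ15, at 84.4%, 54.3% and 55.1% of the median piglet. Its array had a median correlation of 0.987 with the others, the lowest after the 3 arrays that stood apart. Pig 9 (CA MCT) was below the median for all 6 genes and lowest for ATP4B, at 86.2% of the median, with KCNE2 at 55.0%. Pig 6 (CA CON) and pig 14 (SA CON) were above the median for all 6. The share of all genes above or below the median in these piglets was not counted. Pig 6 was among the highest 3 for 4 of the 6, against 9.07% of all genes. Of the arrays that stood apart, pig 4 had 1 of the 6 genes among the lowest 3 and pigs 10 and 22 had 2 each. Of all genes 38.5%, 27.8% and 23.7% put pigs 4, 10 and 22 there. Among the highest 3 these pigs had 2, 0 and 1 of the 6 genes, against 27.4%, 21.2% and 19.9% of all genes.

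**Figure D3:**
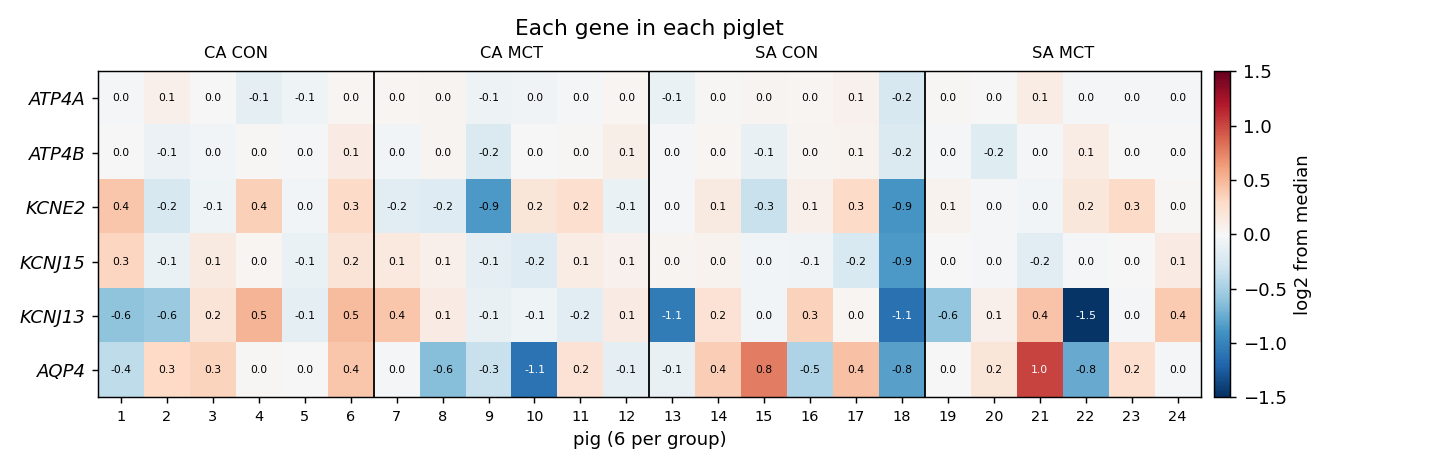
Log2 intensity of each gene (rows) in each piglet (columns, by group) relative to the median of the 24 piglets, blue for lower and red for higher. Pig 18 was low in all 6 rows and pig 9 in KCNE2, and the rows of ATP4A and ATP4B were pale throughout.

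The other genes of the pathway were looked up in pig 18 after its low values had been seen. Of 28 analysed pathway genes, pig 18 was among the lowest 3 piglets for 10, against 18.2% of all genes, and the lowest of all for 7, against 5.61% of all genes. HRH2, the histamine receptor of the parietal cell, was at 59.8% of the median, CCKBR, the gastrin receptor, at 53.0%, and PTGER3, the prostaglandin receptor that restrains secretion, at 42.9%. SLC26A7, a basolateral chloride and bicarbonate exchanger, was at 69.5% and SLC9A4, a sodium and hydrogen exchanger, at 73.9%. ESRRB, an oestrogen-related receptor, was at 49.7% and HIP1R, an actin and clathrin adaptor, at 66.4%. GIF, gastric intrinsic factor, the carrier of cobalamin, was at 88.3%. The 4 genes listed as parietal markers outside the 6 genes had their lowest mean in pig 18, at -0.59 on the log2 scale relative to the median piglet. So had the 3 erythroid markers, at -0.32, and the 7 fibroblast markers had their next to lowest, at -0.24. The erythroid markers were low in intensity in all piglets, with HBB at 5.92 to 9.92, SLC4A1 at 11.0 to 18.1 and ALAS2 at 13.2 to 25.8. The 5 chief cell markers had a mean of 0.02, with PGC at 97.6%, PGA5 at 98.9%, CLU at 96.8%, BHLHA15 at 89.1% and RAB3D, the highest of all piglets, at 129% of the median. Of single markers of other cell types, CD79A of B cells (84.6%), MUC1 of mucous cells (87.6%), GFAP of glia (70.5%) and SLC4A1 of erythroid cells (83.9%) were the lowest of all piglets and VIL1 the highest (155%). The part of these in the low acid secretion genes of pig 18 was not tested. In the opposite direction RAB27B and MYO5B, of vesicle traffic, and PRKAR2A, a regulatory subunit of protein kinase A, were higher than in any other piglet, at 148%, 116% and 131% of the median. Pig 4, whose array stood apart most, was among the lowest 3 for 12 of the 28 genes, but for 38.5% of all genes as well.

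Whether the 6 genes varied together was examined over the 24 piglets, as 15 pairs with permutation tests of 100000 resamples and adjustment over the pairs. Of the 15 correlations 14 were positive and 3 passed. ATP4B and KCNE2 had the highest, with Pearson's r = 0.754 (permutation p = 0.00013, adjusted 0.00195) and Spearman's rho = 0.619 (p = 0.00175, adjusted 0.0262, permutation). Only 0.0184% of all genes had as high an r with ATP4B, and 0.0643% with KCNE2. KCNE2 and KCNJ15 had r = 0.590 (permutation p = 0.00744, adjusted 0.0372) but rho = 0.276 (p = 0.191, adjusted 0.396), and ATP4A and AQP4 had r = 0.540 (permutation p = 0.00652, adjusted 0.0372) with rho = 0.525 (p = 0.00891, adjusted 0.0668). For KCNE2 and KCNJ15, 0.469% of all genes had as high an r with KCNE2 and 0.662% with KCNJ15. For ATP4A and AQP4 the shares were larger, 2.72% with ATP4A and 1.92% with AQP4. The subunits of the pump, ATP4A and ATP4B, had r = 0.358 (permutation p = 0.0862, adjusted 0.162) and rho = 0.195 (p = 0.362, adjusted 0.604). As high an r was found for 14.9% of all genes with ATP4A and 4.93% with ATP4B. With the 4 group means removed, r was 0.782, 0.592 and 0.605 for the 3 pairs, and 5 of 15 passed.

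The correlations were smaller without pigs 9 and 18 for the 3 pairs that had passed. Without the 2 piglets farthest from the median of the first gene of each pair, none of the 15 passed, and r was 0.484 for ATP4B and KCNE2 (permutation p = 0.0215, adjusted 0.161), 0.166 for KCNE2 and KCNJ15, and 0.528 for ATP4A and AQP4 (permutation p = 0.0119, adjusted 0.161). Without pigs 9 and 18 in every pair, 7 of the 15 were positive and none passed, r was -0.10 for ATP4A and ATP4B and -0.40 for ATP4A and KCNE2, and it was 0.426 for ATP4A and AQP4.

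Over all genes, those most like each of the 6 in their pattern over the 24 piglets are given as a description, by Pearson's r on arrays that share their normalization. ATP4A was most like TMEM211 (0.811), HABP2 (0.805) and RGL3 (0.763). For ATP4B these were LOC100524239 (0.754), KCNE2 (0.754) and NDUFB5 (0.735), a subunit of respiratory complex I. KCNE2 was most like ATP5H (0.806), a subunit of the mitochondrial ATP synthase, OLFML3 (0.802) and ROMO1 (0.801), a mitochondrial membrane protein. KCNJ15 was most like HOXA7 (0.780), ATP5J2 (0.770), also of the ATP synthase, and NAXE (0.753). The r of KCNE2 and KCNJ15 with the ATP synthase genes was 0.559 and 0.507 without pigs 9 and 18, and that with OLFML3 and HOXA7 was 0.353 and 0.362. KCNJ13 was most like FAM166B (0.794), MMD (0.760) and WDR83OS (0.740). AQP4 was most like SLC26A7 (0.795), NR4A2 (0.771) and GALT (0.768), and these were 0.762, 0.772 and 0.730 without pigs 9 and 18.

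**Figure D4:**
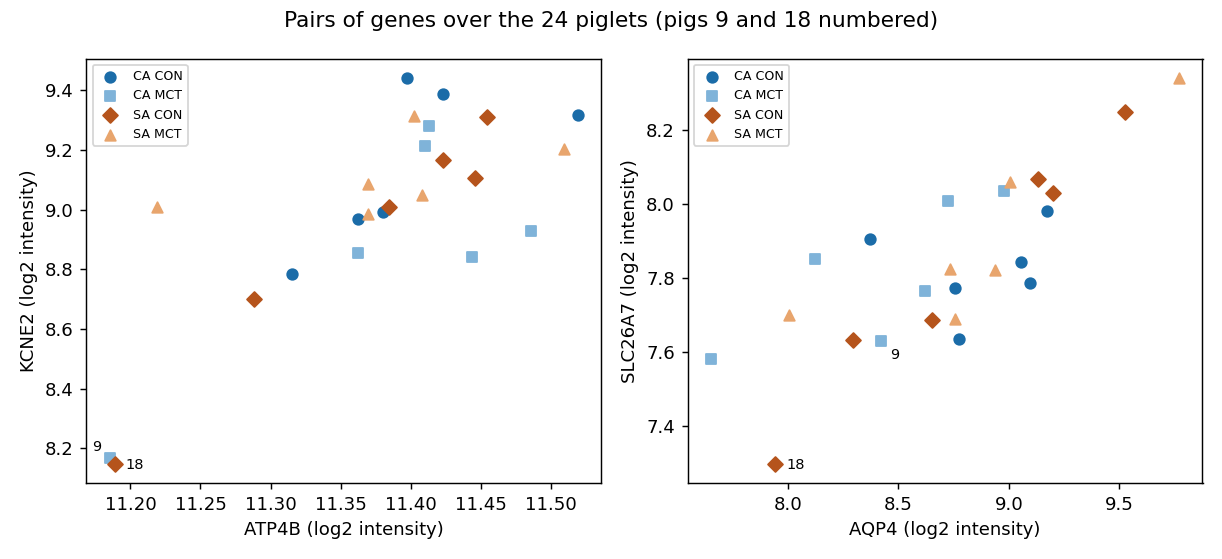
Log2 intensity of ATP4B against KCNE2 (left, r = 0.754) and of AQP4 against SLC26A7 (right, r = 0.795), 1 point per piglet, with group by colour and shape. Pigs 9 and 18 lay together at the low end of the left plot, where r was 0.484 without them, and less so in the right plot, where it was 0.762.

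SLC26A7 was also 1 of 4 analysed genes listed as parietal cell markers outside the 6 genes, with GIF, HRH2 and CCKBR. Whether all 4 mark parietal cells in the pig was not tested. The mean of these 4 had r = 0.706 with ATP4A and 0.618 with AQP4 over the 24 piglets (0.522 and 0.535 without pigs 9 and 18), and 0.197 with ATP4B, 0.352 with KCNE2, 0.401 with KCNJ15 and 0.222 with KCNJ13 (-0.28, -0.19, -0.12 and 0.0079 without them). These are descriptions with no test. Pig 4, whose array stood apart, was next to lowest for both ATP4A and the mean of the 4 markers. The r without pig 4 was not computed. Relative to the median piglet, the mean of the 4 markers ranged on the log2 scale from -0.52 to 0.09 in CA CON, from -0.28 to 0.13 in CA MCT, from -0.59 to 0.35 in SA CON and from -0.29 to 0.24 in SA MCT, so that all groups overlapped. The group medians were -0.04 in CA CON, -0.06 in CA MCT, 0.22 in SA CON and 0.06 in SA MCT. The -0.52 was that of pig 4, with GIF at 389, and the next lowest of CA CON was pig 5 at -0.12. The -0.59 was that of pig 18. These group differences were not tested. Markers of other cell types followed some of the genes more closely, with r = 0.459 for the erythroid list and KCNE2, 0.360 for the fibroblast list and ATP4B, and 0.438 for the chief cell list and KCNJ13 (0.196, 0.272 and 0.491 without pigs 9 and 18). The erythroid markers had the low intensities given above. With ATP4A the lists of the 11 other cell types had r from -0.41 (antral and duodenal) to 0.280 (endocrine), and with AQP4 from -0.34 (surface mucous) to 0.320 (endocrine). The part of cell composition in the differences above was not tested.

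Of 50 other genes listed for acid secretion, 28 were measured, and KCNQ1, SLC4A2, CA2 and CLIC6 were among those not analysed here. None of the 28 passed in any comparison. Over both diets 13 were higher and 15 lower in CA, with a median log2 difference of -0.02 beside -0.0010 for all genes, and over both associations 16 were higher and 12 lower on MCT, with a median of 0.02 beside 0.0018. On CON 12 were higher and 16 lower in CA (median -0.01 beside -0.00036 for all genes), and on MCT 11 were higher and 17 lower (-0.03 beside -0.0046). In CA piglets 13 were higher and 15 lower on MCT (-0.0029 beside 0.0014), and in SA piglets 15 were higher and 13 lower (0.0044 beside 0.0057).

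KCNN4, a calcium-activated potassium channel, had a log2 difference of -0.38 ± 0.16 for CA minus SA over both diets (unadjusted p 0.0268, adjusted p 0.943 in limma). Its median intensity was 91.4 in CA CON, 84.3 in CA MCT, 103 in SA CON and 113 in SA MCT, with overlapping ranges, and without pigs 4, 10 and 22 the difference was -0.23. GIF had a log2 difference of -0.60 ± 0.23 for CA minus SA on CON (unadjusted p 0.0145, adjusted p 0.943 in limma). Its lowest, median and highest intensity was 389, 1173 and 1522 in CA CON and 1156, 1592 and 2026 in SA CON, and the 389 was that of pig 4. Without the arrays of pigs 4, 10 and 22 the difference was -0.33. These were the only 2 of the 28 genes with an unadjusted p under 0.05 in any comparison. That was 1 of 28 over both diets and 1 of 28 on CON, beside 4.14% and 4.25% of all genes.

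The genes that came next in each comparison had higher p-values. For CA minus SA over both diets, GIF was at -0.32 ± 0.16, and at -0.22 without pigs 4, 10 and 22. PTGER3 was at 0.26 ± 0.15 in this comparison, and at 0.17 without pig 18. On CON, KCNN4 was at -0.40 ± 0.23, and at -0.29 without pigs 4, 10 and 22. PTGER3 was at 0.35 ± 0.21 on CON, at 0.16 without pig 18 and at 0.39 without pigs 4, 10 and 22. On MCT, KCNN4 was at -0.35 ± 0.23. CFTR, the chloride channel mutated in cystic fibrosis, was at 0.20 ± 0.11 for MCT minus CON over both associations and 0.29 ± 0.16 in SA piglets, and the former was 0.08 without pigs 4, 10 and 22. PRKAR1A, another regulatory subunit of protein kinase A, was at -0.12 ± 0.07 for CA minus SA on MCT and CCKBR at -0.23 ± 0.18. For MCT minus CON over both associations, GAST was at 0.08 ± 0.07 and CCKBR at -0.13 ± 0.13. In SA piglets the diets differed by 0.25 ± 0.25 for HDC, the enzyme that makes histamine, and by 0.06 ± 0.07 for PRKAR1A. In CA piglets they differed by 0.39 ± 0.23 for GIF, -0.10 ± 0.07 for PRKAR1A and -0.23 ± 0.18 for CCKBR. The interaction was 0.56 ± 0.32 for GIF, -0.16 ± 0.10 for PRKAR1A and -0.45 ± 0.35 for HDC.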

How the data were processed

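Total RNA of 24 piglets was hybridized by the authors to Affymetrix Porcine Gene arrays, and the deposited values were intensities on a linear scale, summarised by Robust Multichip Analysis (background correction, quantile normalization, probe summary) per the series' design text. The linear scale was read from the values, and the deposited intensities were put on a log2 scale here. Clusters were named from the platform annotation. Of 27558 clusters, 11939 had 1 symbol, 416 had several and 15203 none. The brightest cluster was kept for the 958 symbols with more than 1, which left 10882 genes. Groups came from the sample titles.

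One limma model (version 3.58.1, R 4.3.3) of the 4 group means was fitted to all 24 arrays (20 residual degrees of freedom), with 7 comparisons and Benjamini-Hochberg adjustment over all genes, called at 0.05. The fit was tested on simulated data. Exact tests enumerated 924 regroupings. Correlations used scipy 1.17.1 and numpy 2.4.6. Alternatives averaged all clusters of a symbol, left out the 40% dimmest, weighted the arrays, repeated the quantile normalization, used an intensity trend, tested every cluster, fitted only the groups compared, added 16 before log2, or left out each piglet, pigs 4, 10 and 22, or pigs 9 and 18. The precision was limited by the number of arrays.

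The 6 genes and the lists were chosen with earlier results of these data known. Named were the 6 genes, the pathway genes with the 3 largest moderated t in each comparison, and the 3 genes with the highest r for each of the 6. Marker genes were named only to describe the tissue, pig 18 and lists that moved with a gene, and those of pig 18 were chosen after their values were seen. The annotation was used for names only, and positions and promoter sequences were not used here.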

Additional observations from a re-analysis of the deposited data

Results flagged for a closer look

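Among the 6 genes in 4 groups of 6 piglets, 2 values stood far from the rest of their group by Dixon's ratio, the gap to the nearest piglet divided by the range of the group, above its 95% critical value for 6 samples. Chance alone exceeds it in about 1 in 20 groups. ATP4A in SA MCT was highest in pig 21, at 3881 with a ratio of 0.658, and the same piglet had the highest AQP4. KCNJ15 in SA CON was lowest in pig 18, at 378 with a ratio of 0.690. KCNE2 in pig 9 of CA MCT came just short of it, with a ratio of 0.607. The cause was not tested.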

How the results depend on the processing

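No paired analysis was possible because each pig number occurs in 1 group only. None of the 6 genes passed under any alternative. Among all genes, array weights gave 1 gene that passed for CA minus SA over both diets and 1 on MCT. With each piglet left out in turn the number passing was 0 to 1 for CA minus SA on MCT (1 without pig 22) and 0 to 0 in the other 6 comparisons. The causes of the changes below were not tested, and small log2 differences turned sign easily. Leaving out pigs 9 and 18 was chosen after seeing the data.

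With array weights, log2 differences that changed sign were ATP4A (0.0045) and KCNE2 (-0.020) for CA minus SA over both diets, AQP4 on CON (-0.050) and ATP4B for MCT minus CON in SA (-0.0023). With a further quantile normalization only the last of these did (-0.0057), and with 16 added before log2 the interaction of KCNJ13 (-0.0035). Without pigs 4, 10 and 22 these were ATP4A (0.0085) and KCNE2 (-0.040) for CA minus SA over both diets, ATP4A for MCT minus CON in CA (-0.0017), ATP4B in SA (-0.011) and the interaction of KCNJ13 (-0.12). Without pigs 9 and 18 they were ATP4A (-0.033) and AQP4 (-0.089) for CA minus SA on CON, ATP4B (0.0019) and KCNJ15 (-0.0013) for MCT minus CON over both associations, ATP4B in CA (0.024), ATP4A (-0.0014), ATP4B (-0.020), KCNJ13 (-0.096) and AQP4 (-0.093) in SA, and the interactions of ATP4A (0.031) and ATP4B (0.043).

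With each piglet left out in turn, the following ranges crossed 0. For CA minus SA they were -0.025 to 0.0087 (ATP4A) and -0.068 to 0.079 (KCNE2) over both diets, -0.033 to 0.034 (ATP4A) and -0.089 to 0.23 (AQP4) on CON, and -0.027 to 0.0042 (ATP4A), -0.028 to 0.044 (ATP4B), -0.0065 to 0.067 (KCNJ15) and -0.0035 to 0.38 (KCNJ13) on MCT. For MCT minus CON they were -0.018 to 0.019 (ATP4B), -0.11 to 0.038 (KCNE2), -0.016 to 0.076 (KCNJ15) and -0.010 to 0.20 (KCNJ13) over both associations, -0.0096 to 0.034 (ATP4A), -0.037 to 0.024 (ATP4B) and -0.041 to 0.18 (KCNJ13) in CA, and -0.0014 to 0.060 (ATP4A), -0.020 to 0.047 (ATP4B), -0.096 to 0.33 (KCNJ13) and -0.10 to 0.25 (AQP4) in SA. For the interaction they were -0.051 to 0.016 (ATP4A), -0.063 to 0.0083 (ATP4B) and -0.25 to 0.17 (KCNJ13).

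Correlations that changed sign were ATP4B with AQP4, from -0.016 to 0.154 without pigs 4, 10 and 22 and to 0.197 with quantile normalization. Without the 2 piglets farthest from the median they were ATP4A with KCNJ15 (-0.14), ATP4B with KCNJ13 (-0.018), KCNE2 with KCNJ13 (-0.042) and KCNE2 with AQP4 (-0.19). Without pigs 9 and 18 the last 3 had the same values, and ATP4A had -0.096 with ATP4B, -0.40 with KCNE2 and -0.22 with KCNJ15, and KCNJ15 had -0.089 with AQP4. The number of the 15 correlations that passed was 3 as given, 5 without pigs 4, 10 and 22, 4 with quantile normalization and 0 without pigs 9 and 18.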
